A study of Bos taurus with 40 samples.

Results

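SLC5A3 is the gene of a sodium-coupled myo-inositol transporter, and its row was read in all 4 bovine RNA count tables, as 1 of 59051 rows in each and 1 of 2474 rows that carry a gene symbol. It was singled out because of its levels in the ooplasm biopsies grouped by later embryo fate, so those levels are described below without a test. The study followed single bovine oocytes that were matured in vitro and grouped by embryo fate, blastocyst or arrest at cleavage. Libraries of polyadenylated RNA came from granulosa cells (4 blastocyst, 4 cleavage), cumulus cells (4 and 4) and ooplasm biopsies (4 and 4), and from 4 further biopsies with the 4 whole oocytes of the same numbers, whose fate the labels do not give. An ooplasm biopsy is a sample of the oocyte's cytoplasm, granulosa cells line the follicle and cumulus cells surround the oocyte. Genotype is labelled diploid for every sample, no age, breed or treatment beyond in vitro maturation is given, and whether samples of a group share an animal is not stated, so a p-value here speaks of the spread among these libraries alone.

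SLC5A3 carries myo-inositol into cells against its gradient by letting sodium flow in. Inositol serves cells as an organic osmolyte that balances external salt, and it is the head group from which phosphoinositide lipids are rebuilt. Cleavage of those lipids by phospholipase C gives inositol trisphosphate, the messenger that opens calcium stores, including those of the egg at fertilization. In many cell types SLC5A3 transcription is raised by hypertonic medium through the transcription factor NFAT5. In the RefSeq annotation of the ARS-UCD2.0 assembly the gene lies inside the span of MRPS6, the gene of a mitochondrial ribosomal protein. How reads that fit both genes were counted, and with which strand setting, is not given in the sources used here, so a part of the SLC5A3 counts may belong to MRPS6 transcripts. Every level below carries that limit.

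The row was well covered in every library, with 212 to 2261 counts, and no library was at 0. Library totals ran from 7964591 to 23790073 counts, with the cumulus libraries lowest. Granulosa libraries B20 and D27 of the blastocyst group stood apart from the other 6 granulosa libraries by their low totals, 9875705 and 10821126 counts against 14502038 to 17668550, and by their TMM factors, 2.23 and 1.93 against 0.997 to 1.53. The TMM factors also divided by fate: B21 and D24 had 1.53 and 1.49, and the cleavage-group libraries had 0.997 to 1.12. Results that rest on B20 and D27 are given with and without them. Levels are in CPM, counts rescaled to one common library total, with TMM, a correction for library composition. H1FOO, the oocyte linker histone and the only one of 35 marker symbols that has a row under its name, stood at 662 to 1905 CPM in biopsies and whole oocytes. It stood at 0 to 0.101 CPM in cumulus cells and 0.234 to 15.5 CPM in granulosa cells, on the scale of all 32 libraries. Granulosa, cumulus, theca and blood markers could not be looked up by name, so the labels of the somatic cells were not checked against them.

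SLC5A3 RNA was detected in all 8 groups, and its mean level differed by a few fold between them. On the scale of all 32 libraries granulosa cells of the blastocyst group had the lowest mean, 28.97 ± 21.02 CPM (SD, n = 4). Next came cleavage-group biopsies at 41.8 ± 1.02 CPM, cleavage-group granulosa cells at 51.7 ± 24.4 CPM and matched biopsies at 56.7 ± 18.3 CPM. Blastocyst-group biopsies stood at 81.8 ± 14.2 CPM. The 3 highest means were those of blastocyst-group cumulus cells (112 ± 7.96 CPM), whole oocytes (124 ± 55.2 CPM) and cleavage-group cumulus cells (133 ± 23.8 CPM). Neighbours in this order had overlapping ranges, except that no blastocyst-group biopsy reached the lowest blastocyst-group cumulus library. The order depends on the scaling: with library totals alone whole oocytes stood at 82.6 ± 36.8 CPM, under both cumulus groups, and cleavage-group biopsies were lowest at 39.9 ± 5.34 CPM. Granulosa and cumulus samples are bulk RNA, so fewer cells of a type and less RNA per cell cannot be told apart. Between granulosa cells, cumulus cells and oocyte samples, sample type and count table coincide and cannot be told apart either.

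**Figure D1:**
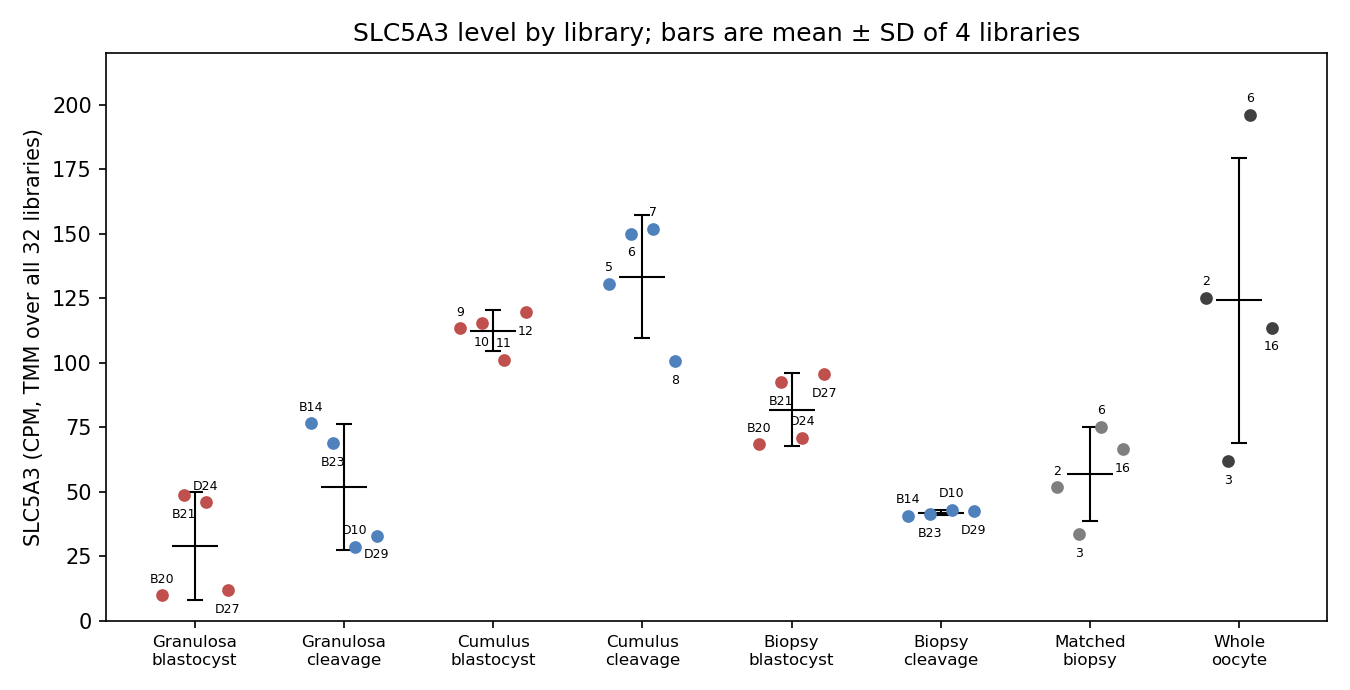
SLC5A3 level (CPM scaled by TMM over all 32 libraries, y axis) for the 8 RNA groups (x axis); each point is a library with its label, and the bars are mean ± SD of 4 libraries. Cumulus libraries lie between 101 and 152 CPM, cleavage-group biopsies lie within 40.7 to 42.9 CPM, and granulosa libraries B20 and D27 are the lowest at 9.72 and 11.9 CPM.

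In the ooplasm biopsies, the libraries by which the gene was singled out, SLC5A3 stood at 75.8 ± 11.4 CPM in the blastocyst group and 40.0 ± 1.48 CPM in the cleavage group (SD, n = 4; TMM within this table). In counts, the blastocyst biopsies B20, B21, D24 and D27 held 1242, 1611, 1207 and 1787 SLC5A3 reads, and the cleavage biopsies B14, B23, D10 and D29 held 835, 802, 693 and 743. As levels these were 65.5, 84.7, 66.4 and 86.4 CPM in the blastocyst group. In the cleavage group they were 39.2, 42.2, 39.5 and 39.0 CPM. The groups did not overlap, and 23.3 CPM separated the lowest blastocyst biopsy from the highest cleavage biopsy. Of the 21174 rows with enough counts, 2.09% likewise had every blastocyst biopsy above every cleavage biopsy, and nothing is read from that share since the gene was picked on this contrast. The ratio of the means was 1.90.

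The biopsies can also be split by the letter of the oocyte labels, whose meaning the labels do not state. Since the fate groups did not overlap, the gap had to appear under both letters, so the split supports nothing. Among B labels the means were 75.1 CPM in the blastocyst group and 40.7 CPM in the cleavage group (2 libraries each). Among D labels they were 76.4 and 39.3 CPM. H1FOO, as a marker of ooplasm, stood at 961 ± 247 CPM in the blastocyst group and 1144 ± 352 CPM in the cleavage group.

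The blastocyst biopsies formed a lower pair, B20 and D24, and a higher pair, B21 and D27, whereas the cleavage biopsies lay close together, with a coefficient of variation of 3.69% (n = 4). Counting error alone gives 3.62% at the depth of those 4 libraries, so their spread was about what counting gives on this scale. The gene was picked on these libraries, which can favour a small spread within a fate group, so this closeness is a description only. That closeness rests on the TMM scaling: with library totals the coefficient of variation was 13.4%, with B23 highest at 47.7 CPM. In the blastocyst biopsies it was 15.0% against a counting error of 2.65%. In the other 6 groups the spread was 2.52 to 15.8 times the counting error.

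**Figure D2:**
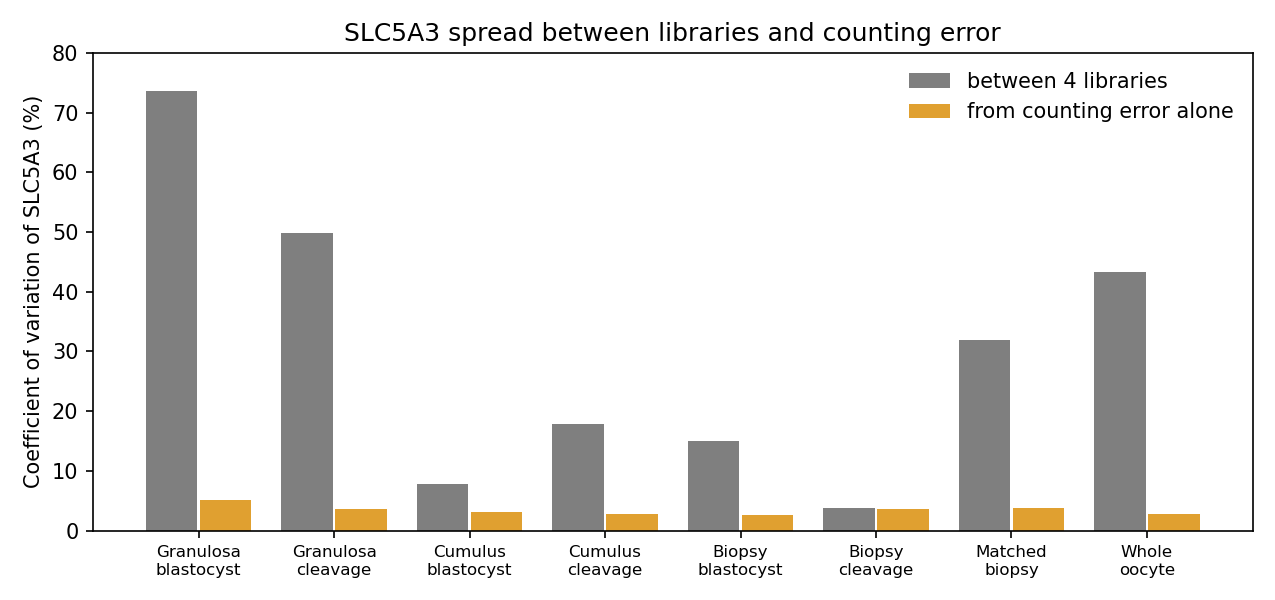
Coefficient of variation of SLC5A3 in percent (y axis) in each group (x axis): grey bars, spread between the 4 libraries in CPM scaled within their table; orange bars, the part that counting error alone gives. Only in cleavage-group biopsies are the bars of like height (3.69% and 3.62%), and blastocyst-group granulosa cells have the largest spread at 73.6%. The gene was picked on the biopsies of known fate, so their spread is a description only.

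**Figure D3:**
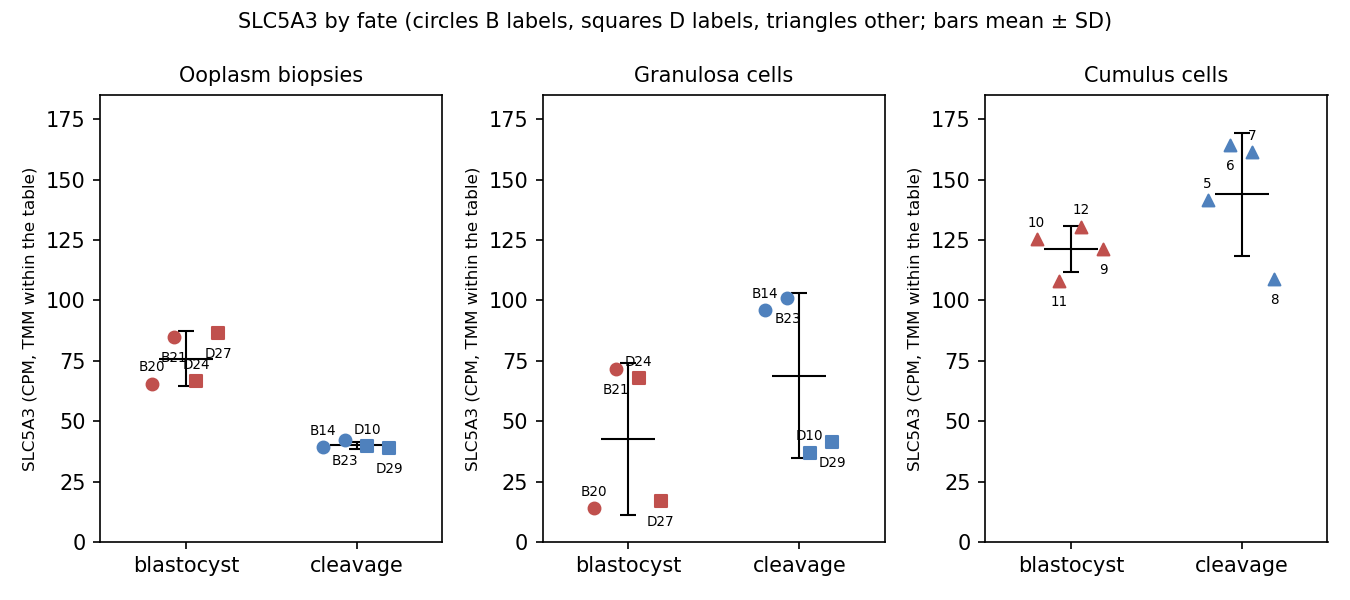
SLC5A3 level (CPM, TMM within the table, y axis) by fate (x axis) in ooplasm biopsies, granulosa cells and cumulus cells; points are libraries with their labels (circles B labels, squares D labels, triangles cumulus) and bars are mean ± SD of 4 libraries. Biopsies separate by fate, granulosa cells fall into pairs within each fate, and cumulus groups overlap.

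Whole oocytes had a higher SLC5A3 level than the biopsy of the same number in each of 4 pairs, but the difference did not pass the test over all rows. How many of all rows ran one way in all 4 pairs was not counted, so nothing is read from that count. The matched biopsies 2, 3, 6 and 16 stood at 38.6, 25.3, 56.2 and 49.8 CPM. The whole oocytes 2, 3, 6 and 16 stood at 86.0, 43.0, 132 and 78.2 CPM. Oocyte 3 lay within the range of the biopsies, and the other oocytes lay above it. The biopsy held 0.425 to 0.637 of the level of its oocyte, and number 3 was lowest in both sample types while number 6 was highest in both. These ratios hold for TMM within the 2 sample types. With library totals the biopsy was still lower in each pair, but the ratios moved, as for number 3 at 26.6 against 32.5 CPM. As means, biopsies stood at 42.5 ± 13.6 CPM and oocytes at 84.9 ± 36.7 CPM (SD, n = 4), a log2 difference of -0.9985 (SE 0.37, 95% interval -1.79 to -0.21).

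By edgeR's quasi-likelihood test with Benjamini-Hochberg adjustment over 18540 rows the adjusted p was 0.752, and the unadjusted p of that test was 0.0172. In this comparison 0% of rows passed (0 of 18540), and the DESeq2 Wald test called 190 rows. An unadjusted edgeR p under 0.05 was held by 1028 rows, near the share that this threshold passes by chance. DESeq2 gave SLC5A3 an adjusted p of 0.311. With the shared number as a replicate block the edgeR log2 difference was -0.95 (adjusted p = 0.628). The mean of H1FOO lay the other way, at 1000.5 ± 412 CPM in biopsies and 774 ± 235 CPM in oocytes, and did not pass (edgeR adjusted p = 0.977).

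The matched biopsies, which the choice of the gene did not use, can be set beside the biopsies of known fate. On the scale of all libraries they ran from 33.5 to 75.1 CPM, reaching both below the cleavage-group range of 40.7 to 42.9 CPM and into the blastocyst-group range of 68.4 to 95.4 CPM. The fate biopsies as a whole and the matched biopsies differed by a log2 value of 0.044 (95% interval -0.66 to 0.75, edgeR quasi-likelihood adjusted p = 0.993), where 4.77% of rows passed. The interval leaves room for a difference of either sign, and both sets were tabulated separately.

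In granulosa cells SLC5A3 did not differ between fates beyond the spread of the libraries. Blastocyst-group libraries B20, B21, D24 and D27 stood at 13.99, 71.5, 67.8 and 17.0 CPM. Cleavage-group libraries B14, B23, D10 and D29 stood at 95.8, 101, 36.9 and 41.5 CPM. Each fate split into a low and a high pair: B20 and D27 were lowest of the 8, D10 and D29 lay below B21 and D24, and B14 and B23 were highest. The means were 42.6 ± 31.3 CPM in the blastocyst group and 68.9 ± 34.3 CPM in the cleavage group, a log2 difference of -0.69 (SE 0.61, 95% interval -2.05 to 0.66, edgeR quasi-likelihood adjusted p = 0.387). In this comparison 21.6% of 22934 rows passed, and 21.3% passed as higher in the blastocyst group.

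The libraries with the least SLC5A3 were B20 and D27, those with the lowest totals and the highest TMM factors. They had 28629 and 28473 rows with 5 counts or more, B21 and D24 had 26373 and 26709, and the cleavage-group libraries had 18065 to 22039, so the wider gap in detected rows lay between the fates. H1FOO stood at 15.5 and 9.97 CPM in B20 and D27 and at 6.32 and 3.91 CPM in B21 and D24, on the scale of all libraries. In the cleavage group it stood at 4.59 CPM in B23 and at 0.234 to 0.446 CPM in the others. Without these 2 libraries the fate difference of SLC5A3 was 0.087 (edgeR adjusted p = 0.931), so the lower mean of the blastocyst group rested on them. What these measures have to do with the SLC5A3 level was not tested. Among B labels the blastocyst mean was 42.7 CPM against 98.5 CPM in the cleavage group, and among D labels 42.4 CPM against 39.2 CPM, so the lower blastocyst mean was seen under the letter B and not under D.

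Set beside the biopsy of the same follicle, which carries the same oocyte label, granulosa cells showed no common ratio. In a joint scaling of biopsies and granulosa cells the biopsy was higher in 4 of 4 blastocyst follicles, by 1.39 to 5.60 times, and B20 and D27 gave the largest ratios, 4.57 and 5.60. In cleavage follicles the biopsy was higher in 2 of 4: B14 and B23 had ratios of 0.542 and 0.652, and D10 and D29 of 1.47 and 1.29. The biopsies of the blastocyst follicles were picked as high, so the ratios in these follicles partly follow from the choice of the gene.

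Over all 16 libraries biopsies stood at 66.5 ± 24.5 CPM and granulosa cells at 46.5 ± 24.9 CPM (SD, n = 8). The log2 difference was 0.52 (SE 0.35, 95% interval -0.21 to 1.25, edgeR quasi-likelihood adjusted p = 0.211), and 59.1% of 21513 rows passed in this comparison. The gene was picked on these biopsies, so neither the difference nor its p is independent of that choice. Fate was left out of this fit, so the gap between the biopsy fates counted as spread. Sample type and count table also coincide here and cannot be told apart. With the shared oocyte label as a replicate block the log2 difference was 0.63 (edgeR adjusted p = 0.214). In the blastocyst group alone it was 1.84 and passed (edgeR adjusted p = 0.0197), which is no independent result since those biopsies were picked as high, and in the cleavage group alone it was -0.26 (edgeR adjusted p = 0.570). With B20 and D27 left out of both sample types, a setting added once the values were known, it was 0.12 (edgeR adjusted p = 0.764).

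**Figure D4:**
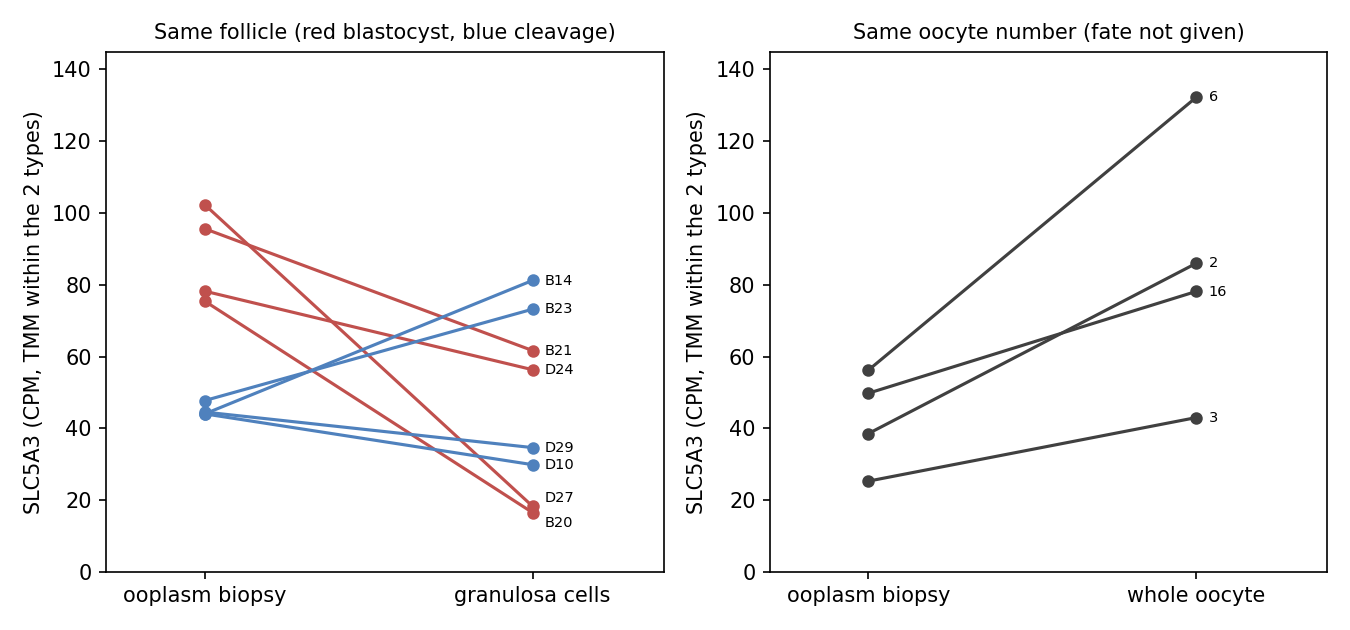
SLC5A3 level (CPM, TMM over the 2 sample types joined, y axis) in ooplasm biopsies and, joined by a line, in granulosa cells of the same follicle (left; red blastocyst, blue cleavage) or in the whole oocyte of the same number (right). All 4 whole oocytes lie above their biopsy, while lines of the cleavage follicles run up for B14 and B23 and down for D10 and D29.

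Cumulus cells of the blastocyst group had a slightly lower SLC5A3 mean than those of the cleavage group, and the difference did not pass. Blastocyst-group libraries 9, 10, 11 and 12 stood at 121, 125, 108 and 130 CPM. Cleavage-group libraries 5, 6, 7 and 8 stood at 141, 164, 161 and 109 CPM. Libraries 5, 6 and 7 lay above every blastocyst library, and library 8 lay near the lowest of them. The means were 121 ± 9.54 CPM and 144 ± 25.6 CPM (SD, n = 4), a log2 difference of -0.25 (SE 0.12, 95% interval -0.51 to 0.02, edgeR quasi-likelihood adjusted p = 0.364). In this comparison 0% of 15410 rows passed with edgeR, 2249 had an unadjusted p under 0.05, and the DESeq2 Wald test called 159. The 1.90-fold gap of the biopsies lay outside this interval in either direction. That gap comes from the contrast on which the gene was picked, so nothing is read from setting it beside the interval.

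SLC5A3 was higher in cumulus than in granulosa cells, the one comparison of the 7 in which it passed over all libraries compared. Over both fates, cumulus cells stood at 123 ± 19.8 CPM and granulosa cells at 40.3 ± 24.3 CPM (SD, n = 8), a 3.16-fold difference (log2 1.66, SE 0.29, 95% interval 1.07 to 2.25, edgeR quasi-likelihood adjusted p = 1.66e-05). The lowest cumulus library, at 101 CPM, lay above the highest granulosa library, at 76.4 CPM. In this comparison 51.7% of 29999 rows passed and 14.8% had all cumulus libraries above all granulosa libraries, so passing it is common. With granulosa libraries B20 and D27 left out, a setting added once the values were known, the log2 difference was 1.16 (edgeR adjusted p = 0.000348). Sample type and count table coincide here, and the share of the difference that belongs to either cannot be told apart.

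Whole oocytes and cumulus cells had like SLC5A3 means on the scale of all libraries, 124 ± 55.2 CPM (SD, n = 4) and 123 ± 19.8 CPM (SD, n = 8). The log2 difference was 0.020 with TMM (95% interval -0.68 to 0.72, edgeR quasi-likelihood adjusted p = 0.9999), -0.15 by DESeq2 size factors and -0.67 by library totals, so its sign rests on the scaling. In this comparison 69.7% of 29999 rows passed, and sample type and count table coincide. The median of all rows moved with the scaling as well, from 0 with library totals to 0.68 with TMM. In a fit of the oocyte and cumulus libraries alone the difference was 0.36 (edgeR adjusted p = 0.141), 0.027 above the median of the rows tested there, against 0.66 below the median in the fit of all libraries.

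**Figure D5:**
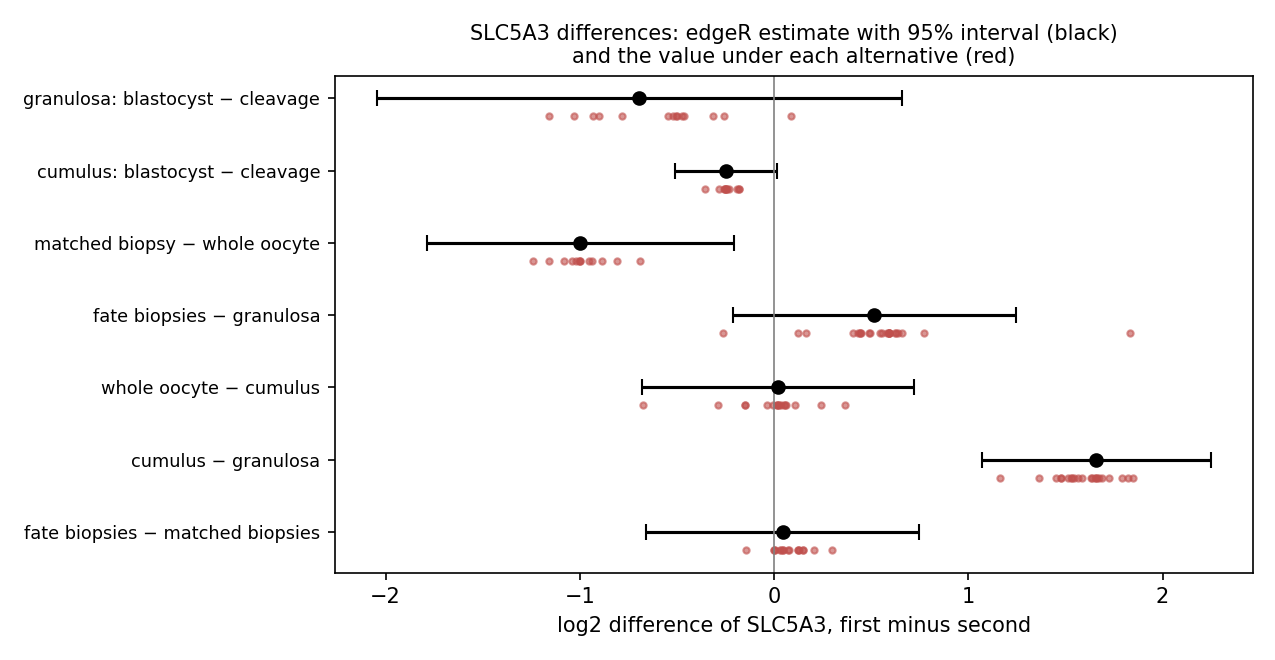
Log2 difference of SLC5A3 (x axis), first named minus second, in the 7 tested comparisons (y axis): black, edgeR estimate with its 95% interval; red, the value under each alternative processing. Only the interval of cumulus minus granulosa cells (1.07 to 2.25) and that of matched biopsies minus whole oocytes (-1.79 to -0.21) leave out 0, and the latter did not pass after adjustment over all rows.

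Of the inositol, phosphoinositide and osmotic genes around SLC5A3, few could be read by name. Of 126 symbols in these lists, 4 had a row under their name: SLC5A3 itself, IMPAD1, PLCB3 and STK39. The other uptake and synthesis genes, the rest of the SLC5 family and NFAT5 are not analysed here, since rows under Ensembl identifiers could not be paired with names. Counts of list members that passed therefore cover these other 3 genes alone.

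IMPAD1, counted in the uptake and synthesis list, is related in sequence to the inositol monophosphatases, and its known role is to clear a nucleotide by-product of sulfation in the Golgi. It rose from 9.23 ± 4.44 CPM in granulosa to 92.8 ± 6.82 CPM in cumulus cells (SD, n = 8, log2 3.43, edgeR quasi-likelihood adjusted p = 5.08e-08). PLCB3, a phospholipase C that cuts phosphatidylinositol bisphosphate into inositol trisphosphate and diacylglycerol, rose from 4.05 ± 1.59 to 34.2 ± 3.32 CPM (log2 3.08, edgeR adjusted p = 1.28e-08). STK39, a kinase that regulates ion cotransporters when cell volume or salt changes, stood at 9.83 ± 12.3 CPM in granulosa and 4.03 ± 0.693 CPM in cumulus cells and did not pass (log2 -0.41, edgeR adjusted p = 0.243). That depends on the scaling and on 2 libraries: STK39 was called lower in cumulus cells, opposite to SLC5A3, with DESeq2 size factors (log2 -0.83, edgeR adjusted p = 0.0341), library totals (-0.85, edgeR adjusted p = 0.0168) and the DESeq2 Wald test (-0.83, adjusted p = 0.0349), and stood at 0.021 without B20 and D27. So 2 of these 3 genes were higher in cumulus than in granulosa cells, as SLC5A3 was, beside 18.8% of all rows that passed as higher there.

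Between fates STK39 rose in blastocyst-group granulosa cells, to 26.1 ± 18.5 CPM against 2.07 ± 0.843 CPM (SD, n = 4, log2 3.66, edgeR quasi-likelihood adjusted p = 0.0116). In this comparison 21.3% of all rows passed as higher in the blastocyst group. Without B20 and D27 the log2 difference of STK39 was 2.60 and its call was lost (edgeR adjusted p = 0.143). IMPAD1 stood at 8.69 ± 3.57 against 16.5 ± 4.63 CPM there (log2 -0.93, edgeR adjusted p = 0.191), and PLCB3 at 5.69 ± 3.003 against 5.66 ± 2.31 CPM. In cumulus cells 0 of the 3 passed between fates, beside 0% of all rows, so nothing is read from that count. The log2 differences there were -0.08 for IMPAD1, -0.03 for PLCB3 and -0.13 for STK39. In biopsies of known fate, where no test was made, the ratios of means on the log2 scale were -0.01 for IMPAD1, -0.28 for PLCB3 and 0.12 for STK39, beside 0.92 for SLC5A3.

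Between matched biopsies and whole oocytes PLCB3 stood at 3.47 ± 1.64 against 0.625 ± 0.330 CPM, in the opposite direction to SLC5A3, and did not pass with edgeR's quasi-likelihood test (log2 2.46, adjusted p = 0.695), whereas the DESeq2 Wald test called it (log2 2.48, adjusted p = 0.0239). STK39, at 136 ± 58.8 against 126 ± 44.3 CPM, and IMPAD1, at 6.80 ± 5.62 against 6.85 ± 6.23 CPM, had log2 differences of 0.11 and -0.01. Of the nearest annotated genes apart from MRPS6, the noncoding RNAs LOC112447088 and LOC112447090 had rows. LOC112447088 reached at most 19 counts and was at 0 in 22 of 32 libraries. LOC112447090 reached 306 counts and was at 0 in 16 of 32 libraries. It was higher in blastocyst-group than in cleavage-group granulosa cells, at 8.09 ± 8.70 against 0.101 ± 0.130 CPM (SD, n = 4, edgeR quasi-likelihood adjusted p = 0.0130), while SLC5A3 did not pass there. In that comparison 21.3% of all rows passed as higher in the blastocyst group. The call of LOC112447090 was lost without B20 and D27 (edgeR adjusted p = 0.199).

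By mean level over the 8 groups, the 5 symbol rows whose pattern lay nearest to that of SLC5A3 were FAM208B, ZMYM2, RBM8A, GARS and CHMP1B. Likeness was the root mean square distance of the centred mean log2 CPM over 8 groups and 32 libraries, among 921 rows of at least 1 CPM, and was 0.33 for FAM208B, 0.36 for ZMYM2, 0.39 for both RBM8A and GARS and 0.41 for CHMP1B. RBM8A is a subunit of the exon junction complex, GARS charges glycine tRNA and CHMP1B belongs to the membrane-cutting ESCRT-III complex. All 5 were lowest in blastocyst-group granulosa cells, as SLC5A3 was on this scale, which partly follows from picking them by likeness. FAM208B had 21.1 CPM there against 75.8 and 84.3 CPM in the 2 cumulus groups. None of the 5 rose from matched biopsies to whole oocytes as much as SLC5A3, which had 56.7 and 124 CPM. ZMYM2 had 17.6 and 27.3 CPM, FAM208B 58.5 and 76.8 CPM, and RBM8A 80.8 and 101 CPM. GARS had 56.9 and 61.4 CPM, and CHMP1B 32.1 and 32.9 CPM.

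Over the 8 biopsies of known fate alone, the symbol rows that ran most closely with SLC5A3, by Pearson correlation of log2 CPM among 859 rows, were the olfactory receptors OR4X2 (0.95), OR4X16 (0.91) and OR4X2B (0.90), CXHXorf36 (0.85) and MUT (0.85), the methylmalonyl-CoA mutase of mitochondria. MUT stood at 85.9 ± 30.5 CPM in the blastocyst group and 45.0 ± 3.87 CPM in the cleavage group. OR4X16 stood at 18.2 ± 10.7 against 3.50 ± 1.89 CPM. The other rows were near 0 in the cleavage group: OR4X2 at 5.08 ± 4.04 against 0.216 ± 0.202 CPM, OR4X2B at 16.5 ± 14.6 against 0.852 ± 0.933 CPM. CXHXorf36 stood at 2.40 ± 1.34 against 0.403 ± 0.224 CPM. The 3 receptors have related names, and whether their reads are shared with one another or with other receptors was not checked. These correlations are a description over 8 libraries of 1 table, whose fate groups differ in SLC5A3 by the choice of the gene, and they come without a test.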

How the data were processed

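Bovine whole oocytes, ooplasm biopsies, cumulus and granulosa cells gave RNA libraries by SMART-Seq HT amplification and Nextera XT library preparation, per the labels' protocols. The submitters' processing notes name STAR, featureCounts, cutadapt and Trim Galore. Not given in the sources used here are versions, genome build, annotation and strand setting. The authors deposited whole-number counts per row and library in 4 tables, used as deposited. Columns were tied to libraries by their titles, and cumulus columns by fate alone, under the number in the column heading. The polar body table's 24 unnamed columns of values were not used. LOC identifiers took names from RefSeq's ARS-UCD2.0 gene table, used for names and neighbours only.

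Each comparison was fitted over all rows kept by filterByExpr, with TMM and robust quasi-likelihood F tests of edgeR 4.0.16 (R 4.3.3), and an adjusted p under 0.05 was called. The fate and matched comparisons used their own libraries, biopsy against granulosa the 16 libraries with oocyte labels, and the other comparisons a fit of all 32. The SE is the log2 difference divided by the root of F. DESeq2 1.42.0 was the other tool, run on every row with a count. Alternatives were other scalings, no filter, blocks, a letter covariate and libraries left out. Scripts were tested on simulated counts. CPM differ between scales, since TMM was computed within the libraries named. Python 3.11.15, pandas 2.3.3 and matplotlib 3.10.9 drew the figures. Counting errors cover counting only.

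The gene, the gene lists and the tests were chosen with earlier results of these data known. Named genes are SLC5A3, up to 4 rows per list by mean CPM, the 2 nearest genes on each side and the 5 most alike rows by each measure. Log2 values for likeness used CPM plus 0.5.

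The numbers pair biopsies with oocytes, and the labels pair biopsies with granulosa cells of the same follicle, per the series text. Across genes, what each library differed by from its group correlated at 0.182 to 0.289 in the 4 same-number pairs and at 0.208 or lower in the other 12. In the 8 same-follicle pairs it correlated at -0.0195 to 0.144, within the range of the other 56 (-0.173 to 0.165), so that pairing rests on the labels.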

Additional observations from a re-analysis of the deposited data

Results flagged for a closer look

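SLC5A3 in the cleavage-group biopsy B23 stood at 42.2 CPM, apart from the other 3 cleavage biopsies at 39.0 to 39.5 CPM. This is a description, since the gene was chosen on these libraries, and it depends on the scale: with TMM over all 32 libraries B23 stood at 41.2 CPM, within the 40.7 to 42.9 CPM of the others. H1FOO in the cleavage-group granulosa library B23 stood at 6.74 CPM, apart from the other 3 at 0.302 to 0.562 CPM (CPM within the granulosa table). Each gap to the nearest library was above Dixon's 95% bound for 4 values, which chance alone passes in about 1 in 20 sets. The sets checked, each 1 gene in 1 group, numbered 34, so the gaps found are about what chance gives.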

How the results depend on the processing

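SLC5A3 kept its call and direction in cumulus against granulosa cells under all 22 alternatives run (log2 1.16 to 1.85). It stayed uncalled with its direction unchanged in the cumulus fate comparison (12 alternatives) and in matched biopsies against oocytes (13, replicate block -0.95 included). The granulosa fate difference was 0.087 without B20 and D27, -0.50 with DESeq2 size factors, -0.26 with library totals, and -1.16 to -0.32 with 1 library left out. Biopsies against granulosa cells gave 1.84, now called, in the blastocyst group alone, which holds the biopsies picked as high, and -0.26 in the cleavage group alone, both added after seeing the data. The replicate block changed no call of SLC5A3. Whole oocytes against cumulus cells gave -0.15 with DESeq2 size factors and with the DESeq2 Wald test, -0.67 with library totals, 0.36 in a fit of the compared libraries, and -0.29 to 0.24 with 1 library left out (below 0 without oocyte 6 or cumulus library 8 or 11). Fate against matched biopsies gave -0.15 to 0.21 with 1 left out (below 0 without fate biopsy D27 or matched biopsy 2 or 3). The biopsy fate ratio was 0.85 to 0.97 on the log2 scale, a range that supports nothing since the gene was picked on these libraries. The cause of these changes was not tested.

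Near 0, PLCB3 between granulosa fates turned to -0.11 without a filter, -0.015 with the letter covariate and -0.40 to 0.37 with 1 library left out. Between cumulus fates PLCB3 ran from -0.075 to 0.035 and STK39 from -0.20 to 0.020 with 1 left out. In matched biopsies against oocytes IMPAD1 was 0.0082 with DESeq2 size factors and 0.0063 with the DESeq2 Wald test, and -0.53 to 0.80 with 1 left out, and STK39 -0.23 to 0.29. STK39 in cumulus against granulosa cells was 0.021 without B20 and D27.

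Rows called numbered 4964 between granulosa fates, 11431 with the DESeq2 Wald test, 8131 without B23, 3162 without B20, 2482 without D27 and 0 without both B20 and D27 (edgeR, 4602 at an unadjusted p under 0.05). Without a filter edgeR called 183 between cumulus fates and 13 in the matched set, against 0 in each; without cumulus library 12 or 7 it called 7 or 3. Biopsies against granulosa cells gave 22742 without a filter against 12705. Fate against matched biopsies gave 1430, 2821 with the DESeq2 Wald test 3 in a fit of those libraries alone, and 725, 803 and 776 without matched biopsy 3, 6 or 16.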
